A study of Caenorhabditis elegans with 2 samples.

Results

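Peaks of the homeodomain protein CEH-27 at transfer RNA (tRNA) genes of Caenorhabditis elegans are described here. A peak was taken when its summit, the base the authors gave as the highest point, lay inside or within 200 bp of a nuclear gene annotated as tRNA. Of the 2328 peaks that the authors found reproducible between replicates, 218 met this rule, which is 9.36%. By that distance, 238 of the 612 nuclear tRNA genes have a peak, because 20 of the peaks lay near 2 tRNA genes and the other 198 near 1. For 10 of the 238 genes, each the farther gene of such a peak, the summit lay more than 100 bp away. No tRNA gene lay near 2 summits.

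CEH-27 belongs to the NK-2 class of homeodomain proteins. Its binding was measured by ChIP-seq, an assay that recovers crosslinked DNA with an antibody and sequences it. Both samples were whole young adults of 73 hours, pooled male and female, of strain OP139, a stably transformed line carrying wgIs139. Its transgene is a ceh-27 fosmid fused to TY1, EGFP and 3xFLAG tags, with unc-119(+) as the marker in unc-119(ed3) animals, so every animal studied shared these alleles. Precipitation used anti-GFP according to the sample descriptions, whereas the antibody field reads ceh-27. There was 1 group of 2 biological replicates, numbered 4 and 1 in the labels, and no second condition, so nothing was tested and every comparison is a description. Whole animals were used, so a strong signal in few cells and a weak one in many cannot be told apart. Control data without the tagged protein were not analysed here, and it was not tested whether the signal here depends on CEH-27.

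tRNA genes are short and are transcribed by RNA polymerase III. Their promoter lies inside the gene, in 2 conserved elements named the A box and the B box, which the factor TFIIIC binds and which bring TFIIIB to the DNA just upstream. A run of T after the gene ends transcription, and each isotype is named by the amino acid that its tRNA carries to the ribosome.

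The gene sequences below show where the B box lies. Each belongs to the strongest peak of its chromosome among genes with no identical copy on the remaining, sixth chromosome, so stronger peaks at F35H8.t1 on II, Y105C5B.t4 on IV and C28G1.t1 on X are not among them. Capitals mark the core of the B box, searched as GTTCNANNC, and all sequences run 5′ to 3′ on the strand of the gene in build ce11. F10C1.t2, a leucine tRNA gene, lies at chrII:5772916-5772999 on the minus strand. C14B9.t2 (leucine) lies at chrIII:8109603-8109724, F29C4.t1 (arginine) at chrIV:143982-144054, F57F5.t1 (isoleucine) at chrV:12002176-12002260 and C04A11.t1 (leucine) at chrX:13665555-13665673, all on the plus strand.
F10C1.t2: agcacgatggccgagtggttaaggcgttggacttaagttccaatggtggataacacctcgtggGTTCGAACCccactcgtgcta
C14B9.t2: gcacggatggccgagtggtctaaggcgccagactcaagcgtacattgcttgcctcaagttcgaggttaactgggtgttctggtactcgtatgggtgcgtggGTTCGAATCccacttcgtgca
F29C4.t1: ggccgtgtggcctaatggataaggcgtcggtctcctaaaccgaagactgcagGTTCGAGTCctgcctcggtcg
F57F5.t1: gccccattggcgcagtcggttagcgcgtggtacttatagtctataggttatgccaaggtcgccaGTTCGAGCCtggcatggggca
C04A11.t1: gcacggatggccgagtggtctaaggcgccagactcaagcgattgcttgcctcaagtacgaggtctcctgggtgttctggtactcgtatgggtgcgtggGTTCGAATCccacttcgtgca
The leucine genes C04A11.t1 and C14B9.t2 are 119 and 122 bases long and differ in the middle, while their first 40 and last 53 bases are the same.

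A further set was chosen for an element upstream, CTCTC or GAGAG, and belongs to the 3 strongest peaks that have it within 100 bases. Y105C5B.t4, the strongest peak of all, does not have it. The set gives the 100 bases upstream of C28G1.t1 (glutamate, chrX:8836013-8836112), C04A11.t1 (leucine, chrX:13665455-13665554) and F41D9.t3 (asparagine, chrX:8404399-8404498), each on the plus strand and ending at the base before the gene. Capitals mark CTCTC, which was picked after the data were seen and is described further on.
C28G1.t1 upstream: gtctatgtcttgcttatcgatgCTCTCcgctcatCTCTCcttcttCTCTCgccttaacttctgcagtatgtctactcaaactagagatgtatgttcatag
C04A11.t1 upstream: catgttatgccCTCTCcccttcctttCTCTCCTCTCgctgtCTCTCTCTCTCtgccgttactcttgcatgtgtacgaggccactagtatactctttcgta
F41D9.t3 upstream: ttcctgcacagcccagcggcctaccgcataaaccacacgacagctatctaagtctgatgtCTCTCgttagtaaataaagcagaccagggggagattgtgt

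Reproducible peaks were common at tRNA genes. A tRNA gene had a peak in 38.9% of cases, against 4.98% of all 46890 annotated nuclear genes counted by the same distance rule. Those comprise 19973 protein-coding genes and genes of other classes, and gene length was not matched to that of tRNA genes. Sequence inside or within 200 bp of a tRNA gene made up 0.272% of the nuclear genome and held 9.36% of the peaks, a ratio of 34.4. The 218 peaks were of middling strength. Their signal, a value per peak that the authors deposited without stating its scale, ran from 91.8 to 389 with a median of 131, against 91.7 to 1263 with a median of 135 in the other 2110 peaks. Their median rank in the list of 2328, where rank 1 is the strongest, was 1232, and that of the other peaks was 1158. The strongest of them stood at rank 70. By signal, the strongest 582 peaks of the list held 42 at tRNA genes (7.22%) and the next 3 groups of that size held 61, 60 and 55 (10.5%, 10.3% and 9.45%). The 79 peaks at genes of small nucleolar RNAs, another class of short noncoding gene and none of them shared with the tRNA set, were stronger, with a median signal of 215 and a median rank of 457.

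The strongest peak at a tRNA gene lay on Y105C5B.t4, an aspartate tRNA gene in an intron of Y105C5B.9, on the opposite strand to that host. This peak (chromosome IV, 15931285 to 15931470) had a signal of 389 and rank 70 in the reproducible list, with 234 and rank 96 in replicate 4 and 158 and rank 55 in replicate 1. Signals of the 3 lists stand side by side because their scales may differ, and only ranks within a list were read. C28G1.t1, the glutamate gene shown above, followed with a signal of 363 (rank 98; rank 113 in replicate 4 and 107 in replicate 1), and its summit lay 71 bp upstream of the gene. The leucine gene C04A11.t1 had 361 (rank 100; ranks 103 and 120 in replicates 4 and 1), with the summit 35 bp into the gene. All 3 therefore ranked within the first 120 regions of each replicate.

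The next 7 of the 10 strongest peaks had signals between 264 and 322. F41D9.t3 (asparagine), whose summit lay 28 bp upstream, had 322 (rank 145; ranks 161 and 138 in replicates 4 and 1). R04A9.t1 (glutamine) in an intron of ZK1193.2 had 304 with the summit 73 bp upstream (rank 179; ranks 166 and 168). W03G11.t1, a lysine gene between protein-coding genes, had 280 with the summit 5 bp into the gene (rank 220; ranks 233 and 286). These 3 lie on X and ranked between 138 and 286 in both replicates. The remaining 4 include 3 peaks near 2 genes. M02F4.t1 (glycine) had 276, with the glutamate gene M02F4.t2 95 bp from the summit. F15G9.t1 (alanine) had 277, with F15G9.t2 97 bp away, and C16B8.t2 (proline) had 265, with C16B8.t3 135 bp away. C14B9.t2, the leucine gene in an intron of C14B9.3 on chromosome III, had 264. Of the 10 strongest, 8 lie on X, where 100 of all 218 peaks at tRNA genes lie.

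**Figure D1:**
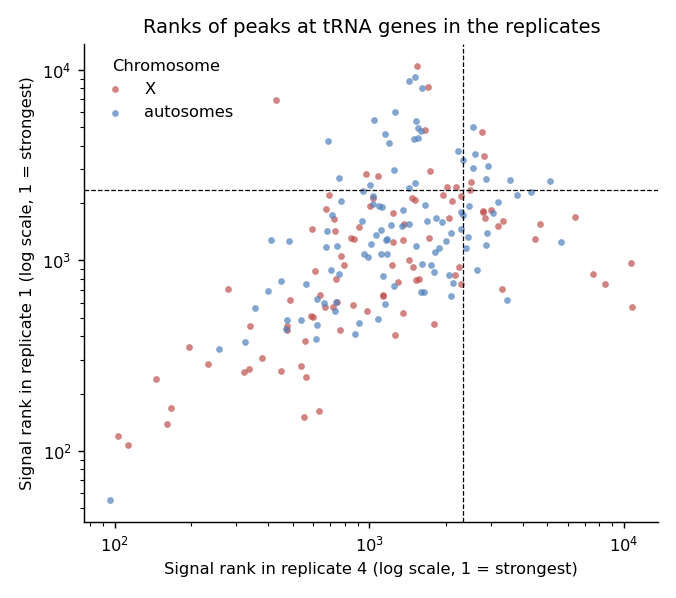
Each point is a peak at a tRNA gene, placed by its rank in the list of replicate 4 (x axis, log scale) and of replicate 1 (y axis, log scale), where rank 1 is the strongest of 30000 regions; only the 205 peaks with a summit within 100 bp in both lists are drawn, those on X in red and those on autosomes in blue, and dashed lines mark rank 2328. Ranks run from 96 to 10783 in replicate 4 and from 55 to 10506 in replicate 1.

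The list passed the authors' threshold on agreement between the replicates, so frequent matches follow from the choice and only describe the set. A match is not given for each single peak. The 2328 strongest regions of the pooled list likewise held 218 at tRNA genes, and none of them lay at a tRNA gene without a reproducible peak. At tRNA genes the reproducible set was thus the same as a cut by pooled signal. Some of its peaks ranked low in 1 replicate, such as F22F1.t6, with rank 10783 in replicate 4 and 569 in replicate 1. A summit within 100 bp was found for 209 of the 218 (95.9%) in replicate 4, for 214 (98.2%) in replicate 1 and for 205 (94.0%) in both. The replicate lists held exactly 30000 regions each and reach far below the reproducible set, so the 2328 strongest of each were also compared. Of the tRNA peaks, 78.0% were among these in replicate 4, 78.9% in replicate 1, 63.3% in both and 6.42% in neither. Among the other 2110 peaks the same shares were 83.5%, 72.4%, 59.7% and 3.79%. The median rank of the tRNA peaks was 1235 in replicate 4 and 1260 in replicate 1. Some peaks of middle strength had no match in a list. F44A2.t1 (alanine, signal 198, rank 547) and T15B12.t1 (184, rank 637), the strongest methionine peak, had none within 100 bp in replicate 4, where replicate 1 ranked them 297 and 410.

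Summits lay on the gene or close to its 5′ end. They fell inside the tRNA gene in 126 peaks (57.8%), upstream of it in 82 and downstream in 10. Outside the gene, 83 lay within 50 bp, 9 at 51 to 100 bp and none farther, though the rule reached to 200 bp. Counted from the first base of the gene, the offset had a median of +10 bp, with quartiles at −18 and +42.8 bp and a range of −81 to +126 bp. In steps of 10 bp, 15 to 22 summits lay in each step from −40 to 19, then 9 at 20 to 29, and then 22 at 30 to 39 and 28 at 40 to 49. Only the step at 20 to 29 parted a stretch around the 5′ end from one near the middle of the gene. In steps of 20 bp from −40 to 59 the counts were 38, 36, 43, 31 and 40. Separate stretches therefore cannot be told from a single broad one. The annotation gives the mature gene rather than a measured transcription start, and the resolution of the summits is not known.

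**Figure D2:**
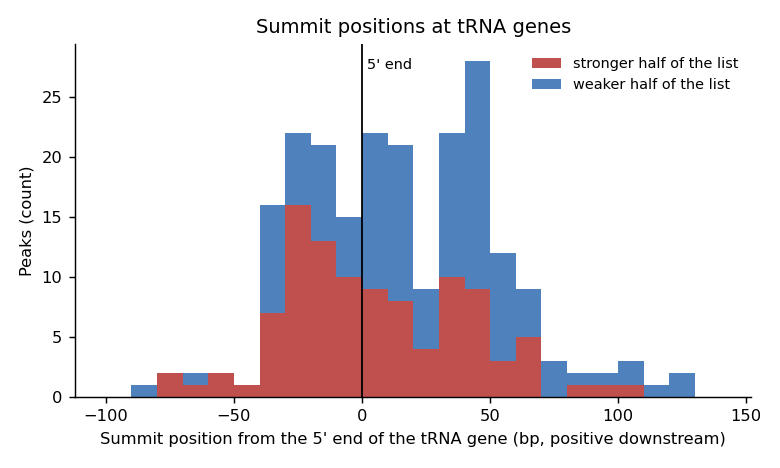
The plot gives the number of peaks at tRNA genes by the distance of the summit from the first base of the gene, in bins of 10 bp, with positive values running downstream on the gene's strand. Stacked colours separate the 103 peaks in the stronger 1164 of the list from the 115 weaker ones, and the bin at 30 to 21 bp upstream holds 16 of the stronger and 6 of the weaker, while that at 40 to 49 bp into the gene holds 9 and 19.

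Summit position went with signal, by medians and without a test. The 103 tRNA peaks among the 1164 strongest of the list had a median offset of −1 bp (quartiles −21.5 and +34), and the 115 weaker ones a median of +21 bp (−1.50 and +46.5). Read the other way, the 82 peaks with an upstream summit had a median signal of 154 and a median rank of 906, the 126 with a summit inside the gene 124 and 1358, and the 10 with a downstream summit 116 and 1532. Each replicate showed the same order of upstream before inside by median rank, with 937 and 1371 in replicate 4 and 906 and 1385 in replicate 1. The downstream summits were less steady, at a median rank of 2299 in replicate 4 and 812 in replicate 1 over 9 peaks each. Among the 10 strongest peaks the order does not show, since 6 have the summit inside the gene, 5 to 61 bp from its 5′ end, and 4 upstream.

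Measured to the nearest tRNA gene, no summit lay between 81 and 213 bp. Gene counts depended more on the limit, with 228 genes at 100 bp, 238 at 200 bp and 251 at 500 bp. The peaks farthest from their gene were ZK154.t4 (glycine, 81 bp upstream, signal 110), R04A9.t1 (73 bp) and C28G1.t1 (71 bp). Each of these summits also lay in a promoter of a protein-coding gene, taken as 1000 bp upstream to 200 bp downstream of a 5′ end. The tRNA gene C28G1.t1 overlaps an exon. Past the limit were 5 summits up to 500 bp away, of which the nearest lay 213 bp from F13G11.t1 (arginine, signal 108) and 226 bp from Y38E10A.t1 (alanine, signal 287). Another, of signal 337, lay 273 bp from the arginine gene C18A11.t2, which has a nearer peak of its own at signal 126.

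At the lower end of the list the cut fell where signal showed no gap. The lowest signal of the reproducible set and the highest pooled signal below it were both 91.7. The weakest peaks were T16D1.t1 (isoleucine, signal 91.8), C17D12.t2 (lysine, 91.9) and T04F8.t1 (asparagine, 92.2). The tRNA genes next below the limit in the pooled list were ZK617.t1 (proline, 91.5), in an intron of the muscle gene unc-22, K08B5.t1 (phenylalanine, 91.1) and F22F1.t7 (isoleucine, 91.1). T16D1.t1 ranked 2561 in replicate 4 and 3053 in replicate 1, against 4145 and 1440 for ZK617.t1, so replicate 1 placed the gene outside the set above the one inside it.

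Many of the tRNA genes without a reproducible peak had a weaker region. Of these 374 genes, 223 (59.6%) had a pooled region within 200 bp, with a median rank of 5295, and 151 had none. In all, 461 of 612 tRNA genes (75.3%) had some pooled region nearby. The same share over all annotated genes was not counted for the pooled list, so these 2 shares have no background beside them. In the first 5 successive groups of 2328 pooled regions, 218, 87, 39, 22 and 11 lay at tRNA genes, which is 9.36%, 3.74%, 1.68%, 0.945% and 0.473%. Farther down, the groups held between 0.215% and 0.558%, with no steady order, where 0.272% of the nuclear genome lies within that distance. Regions that far down were thus about as frequent at tRNA genes as the genome share. Some of the 374 genes were marked strongly in a replicate. Among the 2328 strongest regions of replicate 1 there were 45 such genes, and among those of replicate 4 there were 10. No region in any of the 3 lists was found at 88 genes.

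By chromosome, the share of tRNA genes with a peak varied little. X carries 276 of the 612 genes, of which 112 (40.6%) had a peak, against 126 of 336 (37.5%) on the autosomes. Among autosomes the share was 36.4% on I, 42.1% on II, 42.2% on III, 33.8% on IV and 34.6% on V. In the strongest 2328 regions of each replicate, X stood at 33.0% in replicate 4 and 42.0% in replicate 1, and the autosomes at 31.2% and 35.7%, so the difference between X and the autosomes was smaller than that between the replicates on X. Genes with a peak had a median signal of 150 on X and 128 on the autosomes. The strongest peaks of the other chromosomes were C37A2.t1 on I (cysteine, 220), in an intron of the cyclin gene cye-1, F35H8.t1 on II (arginine, 207) and F57F5.t1 on V (isoleucine, 244).

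Place in the genome made little difference to the share. Of the tRNA genes in an intron of a protein-coding gene, 111 of 284 (39.1%) had a peak, against 125 of 319 (39.2%) of those between genes and 2 of 9 that overlap an exon. Of the 218 peaks, 107 (49.1%) belong to an intronic tRNA gene, where 46.4% of all tRNA genes are intronic. Genes on the opposite strand to their host had a peak in 53 of 122 cases (43.4%) and those on the same strand in 58 of 162 (35.8%). This difference was seen in replicate 4 (36.1% and 28.4%) but not in replicate 1 (37.7% for both). A summit in a promoter of a protein-coding gene, 1000 bp upstream to 200 bp downstream of a 5′ end, was seen for 54 tRNA peaks (24.8%), against 1263 (59.9%) of the other peaks.

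Of genes on X with another tRNA gene within 1000 bp, 42 of 135 (31.1%) had a peak, against 70 of 141 (49.6%) of genes without such a neighbour. On the autosomes the shares were 38.6% and 37.0%. Of the 20 peaks near 2 tRNA genes, 12 lie on X, as do 135 of all 236 tRNA genes with a neighbour within 1000 bp.

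All 20 standard isotypes had at least 2 genes with a peak, and the share ran from 15.8% to 61.8%. Threonine genes stood highest, with 21 of 34 (61.8%), followed by valine with 17 of 31 (54.8%) and alanine with 18 of 34 (52.9%). Leucine (18 of 39, 46.2%), aspartate (44.4%), glutamate (43.9%) and lysine (43.5%) came next. In the strongest regions of the replicates, threonine had 41.2% in replicate 4 and 55.9% in replicate 1, valine 48.4% and 45.2%, and alanine 41.2% and 38.2%.

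The lowest shares were 3 of 19 genes (15.8%) for tyrosine, 2 of 12 (16.7%) for tryptophan and 5 of 27 (18.5%) for glutamine. In replicates 4 and 1, tyrosine had 15.8% and 21.1%, tryptophan 16.7% and 16.7%, and glutamine 14.8% and 25.9%. Proline, at 31.0%, moved to 33.3% and 50%, so isotypes in the middle of the order cannot be told apart by these data. The ends of the order also changed between replicates. Asparagine, at 30%, had 15% in replicate 1, below tyrosine, and threonine stood below valine in replicate 4. The selenocysteine tRNA gene and 5 genes of unstated isotype had no peak.

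Isotypes with a low share could still hold a strong peak. The glutamine gene R04A9.t1 is the example with 304, and R11.t1 (tyrosine) had 252. The tryptophan gene sup-5, named for suppressor mutations that read a stop codon, had 227 with its summit 20 bp upstream, in an intron of fli-1. It ranked 354 in replicate 4 and 560 in replicate 1. The strongest threonine peak, at R01H5.t1, was weaker, with 215. The strongest peaks of the remaining isotypes not yet named were C53C7.t1 (serine, 250), F59C12.t3 (valine, 238), Y39B6A.t9 (phenylalanine, 206) and W09G10.t1 (histidine, 188). F29C4.t1, whose sequence is given above, had 207 like F35H8.t1, the other strong arginine peak.

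**Figure D3:**
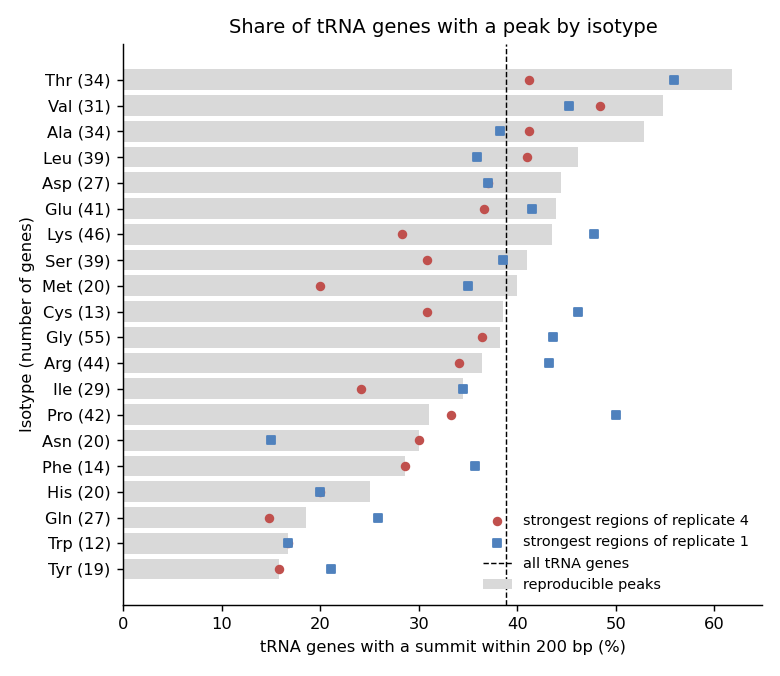
Bars give the percent of tRNA genes of each isotype with a reproducible peak, and markers give the same percent for the 2328 strongest regions of replicate 4 and of replicate 1. The dashed line marks all tRNA genes at 38.9%, threonine is highest at 61.8% and tyrosine lowest at 15.8%, and a square that hides its circle stands for equal replicates, as for tryptophan at 16.7%.

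tRNA genes occur in many identical copies, and copies of the same sequence were often marked unequally. The 612 genes hold 200 distinct sequences, of which 57 occur more than once. In 42 of these 57, some copies had a peak and some had none, which includes all 20 sequences with at least 10 copies. Since 38.9% of all tRNA genes had a peak, large groups of any genes would mostly hold both kinds, so this count is only a description. In 6 all copies had a peak, and in 9 none had. Genes of a sequence with at least 10 copies had a peak in 134 of 317 cases (42.3%), and genes with a sequence of their own in 44 of 143 (30.8%). How the alignment dealt with reads that match several copies is not given in the sources used here. A read lying within such a gene matches every copy, and the part of this in the result was not tested.

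The largest group was a glycine sequence of 29 copies, with a peak at 13 and none at 16, of which 13 had a weaker pooled region. Its signals ran from 96.4 at T04D3.t3 to 276 at M02F4.t1. A lysine sequence of 25 copies had a peak at 14, from 91.9 at C17D12.t2 to 280 at W03G11.t1. A proline sequence of 24 copies had a peak at 8, from 121 at C16B8.t1 to 215 at F46G11.t1 and F46G11.t2, which share 1 peak whose summit is 37 bp from the first and 153 bp from the other.

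**Figure D4:**
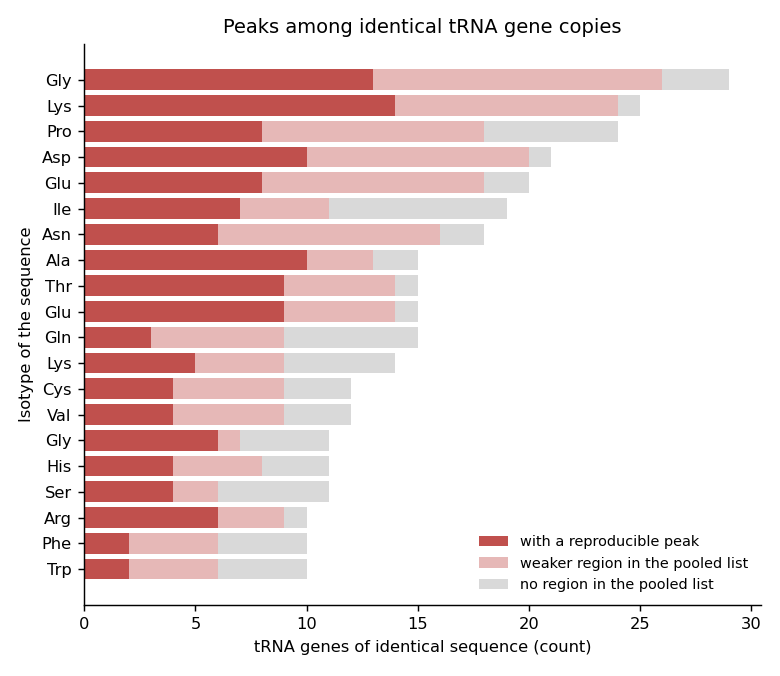
For each of the tRNA gene sequences with at least 10 identical copies, bars give the number of copies with a reproducible peak, with a weaker region in the pooled list and with none. Every one of the 20 sequences holds copies of both kinds, and the share with a peak runs from 20% to 66.7%.

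A pair from the proline group shows how far such copies share sequence. The gene F46G11.t1 (chrX:5801472-5801543, plus strand) has a peak with its summit 37 bp upstream, and C48C5.t3, an identical gene on the minus strand of the same chromosome, has no region in any list. The peak of F46G11.t1 was uneven between replicates, with rank 428 in replicate 4 and rank 6945 in replicate 1. The gene is printed once, with the B box core in capitals, and then the 50 bases directly upstream of each copy, at chrX:5801422-5801471 and chrX:8969560-8969609.
F46G11.t1 and C48C5.t3: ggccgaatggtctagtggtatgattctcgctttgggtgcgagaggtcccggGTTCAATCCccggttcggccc
F46G11.t1 upstream: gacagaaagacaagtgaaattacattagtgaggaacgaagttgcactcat
C48C5.t3 upstream: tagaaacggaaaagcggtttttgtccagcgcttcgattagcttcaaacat
Of these upstream sequences, 62% of the bases are A or T at F46G11.t1 and 58% at C48C5.t3, which is the opposite order to that found over all genes.

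Across all tRNA genes, those with a peak had fewer A and T bases upstream. The 50 bases upstream held 54.7% ± 8.06 A and T in the 238 genes with a peak and 59.2% ± 9.84 in the 374 without (SD over genes). Downstream the values were 72% ± 7.50 and 73.6% ± 8.23. Grouped at the quartiles of downstream AT content, 48.5%, 35.4%, 40.2% and 30.9% of genes had a peak, from the lowest to the highest group. When genes were grouped at the quartiles of upstream AT content, which are 50%, 58% and 64%, a peak was seen at 49.0%, 49.5%, 34.8% and 16.8% of genes from the lowest to the highest group. Replicate 4 gave 41.3%, 42.0%, 26.5% and 13.1%, and replicate 1 gave 49.7%, 50.5%, 34.1% and 13.9%, so the group of highest AT content was lowest in both. The difference was widest away from the gene, with 53.5% against 61.5% at 41 to 50 bp upstream and 52.0% against 53.3% at 1 to 10 bp. The same held among identical genes. Over the 42 sequences with copies of both kinds, upstream AT content was lower in the copies with a peak in 34 and higher in 8, with a median difference of −5.27 percentage points. Base composition can itself affect recovery and sequencing of DNA, and its part in the result was not tested.

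The element CTCTC, or GAGAG on the other strand, was frequent in front of marked genes. It stood within 100 bases upstream of 115 of the 238 genes with a peak (48.3%) and of 65 of the 374 without (17.4%), while 12.4% of all 100-base windows of the genome hold it. In the CTCTC direction the shares were 36.6% and 12.0%, and as GAGAG 17.6% and 5.88%. In the 100 bases downstream they were 13.0% and 8.56%. Counted the other way, 63.9% of genes with the element had a peak (56.7% in replicate 4 and 61.1% in replicate 1), against 28.5% of genes without it (21.8% and 29.2%). By distance, the contrast was widest at 41 to 60 bases upstream, where 23.1% of genes with a peak and 6.95% of genes without had a match.

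The contrast was seen at low and at high AT content. Among genes with upstream AT content at or below the median, a peak was seen at 82 of 124 with the element (66.1%) and 87 of 219 without it (39.7%). Above the median the counts were 33 of 56 (58.9%) and 36 of 213 (16.9%). On X the shares were 71.6% and 27.7%, and on the autosomes 57.6% and 29.1%. Among the 42 sequences with copies of both kinds, the element stood before 87 of 180 copies with a peak (48.3%) and 43 of 252 without (17.1%). In 32 of the 42 it was more frequent in copies with a peak, in 3 less frequent and in 7 equal. It was not particular to tRNA genes: 39.9% of the tRNA peaks and 47.0% of the other peaks held it within 50 bp of the summit, against 12.5% of genome windows of that length. Among the other peaks, the 79 at small nucleolar RNA genes had a lower share, 24.1%. This element was picked because it looked frequent in these sequences, so its shares support nothing beyond themselves.

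**Figure D5:**
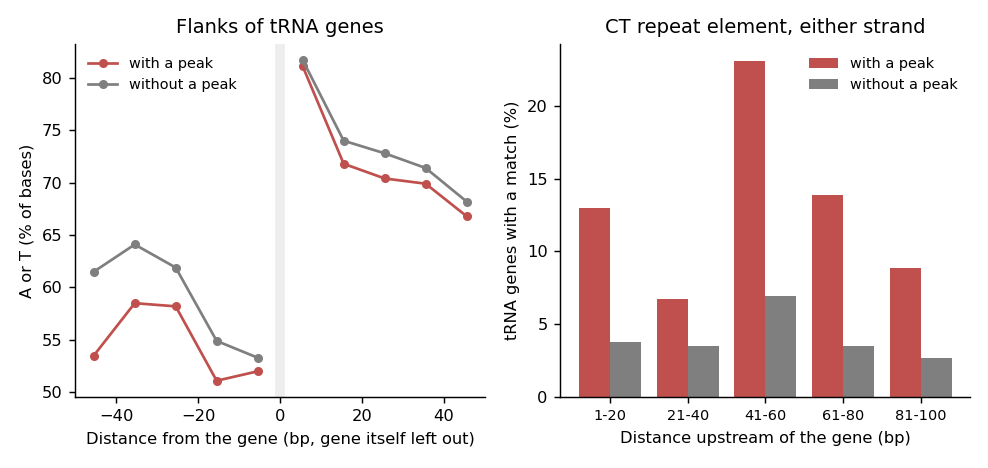
The left panel gives mean A and T content in bins of 10 bp on both sides of tRNA genes (negative distances upstream, y axis not from 0) with and without a peak, and the right panel the percent of genes with a CT repeat match, on either strand, in bins of 20 bases upstream. Genes with a peak lie lower in AT content at 41 to 50 bp (53.5% against 61.5%) and higher in CT repeat matches at 41 to 60 bases (23.1% against 6.95%).

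The B box core was found in nearly all tRNA genes and the A box core in most. The B box core GTTCNANNC lay on the gene's strand in 587 of 612 genes (95.9%), where 2.45% of 72-base genome windows hold it on either strand, and 230 of these genes (39.2%) had a peak, against 8 of 25 without it (32%). On the other strand of the gene it was found in 22 genes, of which 15 had a peak (68.2%), against 37.8% of the other 590. The A box core TNGNNNAG in the first 30 bases was found in 511 genes (83.5%), 207 of them with a peak (40.5%), against 31 of 101 without it (30.7%). On the other strand it was found in 5 genes, and 13.3% of 30-base genome windows hold it on either strand. TTTT within 30 bases after the gene was found at 605 genes, and at 162 on the other strand, where 58.9% of 30-base windows hold it on either. Of the 9 genes of at least 100 bases, 5 had a peak, and all 5 are leucine genes, among them C04A11.t1, C14B9.t2, ZK822.t1 (148), F22B7.t1 (121) and F42F12.t1 (92.3).

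AAGTG is the core of the sites that NK-2 class homeodomains bind. Searched on both strands within 50 bp of the summit, it was found at 36 of the 218 (16.5%) and at 594 of the other 2110 peaks (28.2%), where 20.5% of 101-base genome windows hold it. Of the 36 peaks, 33 had a match outside the tRNA gene. The gene sequences take up much of these windows and held it in 10 of 612 cases (1.63%), 5 of them with a peak. Whether this bears on the lower share at tRNA peaks was not tested.

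Protein-coding genes that act on tRNAs were read from the same list by their promoters, where 8.47% of all 19973 protein-coding genes had a summit. Of the aminoacyl-tRNA synthetases, which load amino acids onto tRNAs, 3 of 32 matched genes (9.38%) had one. These were ears-2 (glutamyl-tRNA synthetase, signal 304), kars-1 (lysyl, 167) and mars-1 (methionyl, 95.9). None of 6 genes of polymerase III transcription had one. Of 11 genes of tRNA maturation, 1 did, the Elongator subunit gene elpc-4 (180), with the summit 964 bp upstream. The share of the synthetases is near that of all protein-coding genes, and lists of 6 and 11 genes are too small to compare.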

How the data were processed

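Per the labels, 4 region lists on build ce11 came from the authors: 30000 regions for each of the 2 replicates, 30000 from both pooled, and 2328 that passed an irreproducible discovery rate threshold. The deposited signal per region has no stated scale and served only to describe and rank regions within a list. What aligner, caller and threshold were used is not given in the sources used here. Depth is unknown, since the lists hold no read counts, so no interval was given.

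Genes came from Ensembl release 115 (WBcel235, the assembly of ce11), and tRNA names, isotypes and sequence from RefSeq, where all 612 nuclear tRNA genes matched. Replicate summits within 100 bp counted as matched. Motifs were read from the genome on both strands, and a match is only a description. Sequences on the left-out chromosome, or identical to one there, are not shown. Named genes were the 10 strongest peaks, the strongest by chromosome and isotype, the 3 weakest, those nearest to either limit and the 3 largest groups of copies; other genes were named after their values were seen. The members and lists were chosen with earlier results of these data known, and the CTCTC element, splits by AT content and by neighbour after the data were seen. With 1 group no test was possible. Functions were tested on simulated data. The work used matplotlib 3.10.9, pandas 2.3.3, numpy 2.4.6 and scipy 1.17.1 under Python 3.11.15.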

Additional observations from a re-analysis of the deposited data

How the results depend on the processing

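Alternatives took other distances, overlap of the whole peak, the 1164 strongest peaks or the 2328 strongest regions of 1 replicate. Of 43 values, 22 stayed within 1 SD between the replicates or, for counts, within 1.5 times the value reported. With summits inside the gene only, 126 peaks and 126 genes were counted, and X had 21.4% and the autosomes 19.9% of genes with a peak. The median offset was then 35.5 bp and the median rank 1358, and 20.6% of genes with a B box core had a peak. With the 1164 strongest peaks there were 103 peaks and 115 genes, X had 22.8% and the autosomes 15.5%, the median offset was −1 bp and 47.6% of peaks were intronic. With 500 bp, 48.0% were intronic. Leaving out either replicate gave 179 to 213 peaks, 196 to 236 genes, 33.0% to 42.0% on X, 31.2% to 35.7% on the autosomes, offsets of 6 to 9 bp, 47.4% to 48.0% intronic and median ranks of 1096 to 1187. Of genes with a B box core, 32.5% to 39.0% then had a peak. The first 2 settings count fewer peaks by construction, and the cause of the other shifts was not tested. No paired analysis was possible because there was 1 group. With 2 replicates and unknown depth, small differences between isotypes or chromosomes cannot be resolved.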
